A study of Mus musculus with 58 samples.

Results

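Knockdown of Tfeb in wild-type microglia was examined in 8 of the 58 RNA-seq samples of the series, 4 from mice given an antisense oligonucleotide (ASO) against Tfeb and 4 from mice given a control ASO. The 8 were chosen by their labels, as the wild-type libraries marked tfeb and ntc, and each carries a number, called grp, from 1 to 4 that occurs once in either group. All of the mice were C57BL/6 with the genotype WT. They received 1 intracerebroventricular bolus, and microglia were taken from the forebrain 14 days afterwards by dissociation and sorting of DAPI-, CD11b+, CD45low, CX3CR1+ cells. The same injection experiment holds 12 further wild-type libraries, 4 each from mice given PBS, an ASO against Mitf or an ASO against Tfe3, which served as comparison groups and shared in the estimate of the spread. The rest of the series covers an age course and injected SgshKO mice and was not used here. Ages, sexes and the ASO sequences are not in the labels used here, ntc is not spelled out there, and no label ties a replicate to a single animal, so p-values measure only the spread between these libraries.

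TFEB, MITF and TFE3 are related basic helix-loop-helix leucine zipper transcription factors that bind short E-box sequences, among them the CLEAR element found near many lysosomal and autophagy genes. When nutrients are plentiful, mTOR at the lysosome surface phosphorylates TFEB and holds it in the cytoplasm, and starvation or lysosomal stress lets it enter the nucleus. Microglia, the resident macrophages of the brain, clear debris and synapses through an extensive lysosomal system. An ASO of the kind used for knockdown pairs with its target RNA and leads to its destruction.

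The deposited table gave raw counts for 10277 genes, with totals of 16554404 to 30378870 in the control ASO libraries and 14372015 to 24769606 in the Tfeb ASO libraries. Levels are given in CPM, the counts of a gene per 1000000 counts of its library after scaling by the TMM factor. They are not per length and so compare libraries but not genes. The microglial marker Cx3cr1, the fractalkine receptor, was abundant in both groups, at 9626 to 11765 CPM with the control ASO and 9147 to 10665 CPM with the Tfeb ASO. Of the markers of other cells, 6 of 16 for oligodendrocytes, 4 of 15 for astrocytes, 4 of 14 for border macrophages, 4 of 16 for endothelial and mural cells, 3 of 20 for lymphocytes, 2 of 22 for monocytes and neutrophils and 1 of 16 for neurons were measured. None passed edgeR's test between the groups, while DESeq2 and limma on the authors' batch-corrected signal each called 1 oligodendrocyte marker higher. An unadjusted edgeR p under 0.05 was seen in 5 of these 24 and in 1478 of all 10277 genes tested. In bulk libraries such as these, fewer cells of a type and less RNA per cell cannot be told apart.

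Tfeb fell with its ASO, and the transcripts of its relatives Mitf and Tfe3 did not pass the test. Tfeb (ENSMUSG00000023990.18, GRCm38 chr17:47737030-47792419, plus strand) stood at 54.2, 58.1, 52.6 and 54.7 CPM in control ASO replicates 1 to 4. With the Tfeb ASO it stood at 6.91, 6.30, 4.59 and 5.40 CPM. Every treated library was below every control library, and the fitted level was 10.6% of control (log2 fold change -3.24, SE 0.0814, adjusted p = 5.80e-15, edgeR quasi-likelihood test). The 12 libraries of the other groups had 47.3 to 62.3 CPM with PBS, 48.4 to 58.9 CPM with the Mitf ASO and 44.8 to 56.2 CPM with the Tfe3 ASO, so low Tfeb was seen with its own ASO only among the 5 wild-type groups. Mitf, the family member first known from pigment cells, had 34.5, 42.8, 47.3 and 50.4 CPM with the control ASO and 38.8, 35.1, 41.8 and 46.1 CPM with the Tfeb ASO. These ranges overlapped (log2 fold change -0.10, edgeR adjusted p = 0.603). Tfe3 had 202, 192, 196 and 202 CPM with the control ASO and 216, 199, 221 and 231 CPM with the Tfeb ASO, again with overlap (log2 fold change 0.13, edgeR adjusted p = 0.248). The Mitf ASO libraries held 1.01 to 2.15 CPM of Mitf and the Tfe3 ASO libraries 34.9 to 40.5 CPM of Tfe3, which shows that each factor had a group in which it was low.

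**Figure D1:**
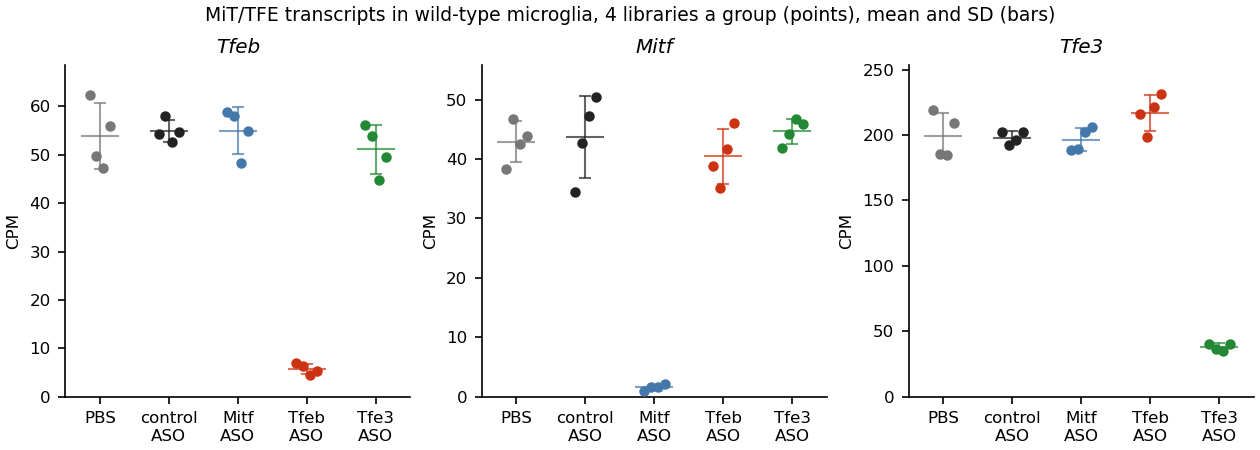
Level of Tfeb, Mitf and Tfe3 in CPM (vertical axes, each from 0) in the 5 wild-type groups; points are the 4 libraries of a group and the bars mark mean and SD. Tfeb is low in the Tfeb ASO group alone, at 4.59 to 6.91 CPM, while Mitf and Tfe3 in that group overlap the control ASO libraries.

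Beyond Tfeb itself the differences were few and small, and more genes rose than fell. Of 10277 genes tested, 80 (0.778%) passed an adjusted p of 0.05 in edgeR's quasi-likelihood test, 58 higher (0.564%) and 22 lower (0.214%) with the Tfeb ASO. The median absolute log2 fold change among the 80 was 0.308, and 3 of them changed at least 2-fold, namely Tfeb, Il3ra and Trps1. Each of the 58 was higher and each of the 22 lower in all 4 same-numbered pairs of libraries. The groups did not overlap for 59 of the 80, while 418 of all genes tested (4.07%) had groups that did not overlap. By read depth, not per length, the genes that rose had a median of 229.6 CPM against 134.8 CPM for genes that fell and 28.5 CPM for all genes. Over all genes, 5289 had higher and 4988 lower values, with a median log2 fold change of 0.00536. An unadjusted edgeR p under 0.05 was found for 1478 of the 10277, 849 higher and 629 lower. The unadjusted counts given for single lists below are to be read beside that share.

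The number of genes called leaned on single libraries and on the pairing by grp. It was 24 without control ASO replicate 1, 42 without control ASO replicate 2, 31 without control ASO replicate 4, 33 without Tfeb ASO replicate 1, 29 without Tfeb ASO replicate 2 and 28 without Tfeb ASO replicate 4. Without grp as a block 9 genes passed, 6 higher (Fth1, Ftl1, Ly6e, Gm2a, Vcam1 and Ptms) and 3 lower (Tfeb, Mtrex and Sft2d2). 21 of the 80 genes were called with each of the 8 libraries left out in turn, and none of the 80 changed sign under any alternative run. With upper-quartile in place of TMM factors, 29 genes were called higher and 18 lower, so that 61.7% of the calls were increases against 72.5% with TMM.

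Beside Tfeb, 4 of the 12 largest decreases kept their calls with any one library left out, namely Mtrex, Tmcc3, Ccpg1 and Sft2d2. Mtrex, the helicase that feeds RNA to the nuclear exosome (GRCm38 chr13:112867418-112927398, minus strand), had 49.6, 54.6, 51.8 and 57.1 CPM with the control ASO. It had 34.5, 36.4, 38.4 and 37.5 CPM with the Tfeb ASO, below every control library (log2 fold change -0.54, SE 0.0533, edgeR adjusted p = 2.51e-05). Its levels with PBS, the Mitf ASO and the Tfe3 ASO were 47.5 to 56.1, 51.5 to 52.9 and 52.9 to 57.1 CPM, so that all 16 libraries of the other groups lay above the 4 of the Tfeb ASO. Tmcc3, which encodes a coiled-coil membrane protein of the endoplasmic reticulum, went from 318, 284, 213 and 263 CPM to 190, 165, 142 and 161 CPM. Its groups did not overlap although the control libraries ranged widely (log2 fold change -0.70, SE 0.0744, edgeR adjusted p = 4.48e-05). Ccpg1, a receptor for the autophagy of endoplasmic reticulum, had 102, 121, 136 and 131 CPM with the control ASO and 65.6, 81.1, 99.5 and 93.9 CPM with the Tfeb ASO. In each pair the treated library was lower (log2 fold change -0.53, SE 0.0559, edgeR adjusted p = 4.48e-05). 71.8% of the 7497 exonic bases of Ccpg1 overlap those of Gm44503 on the same strand or Pigb on the other, and whether the counting used strand is not stated, so its reads cannot all be assigned with certainty. Pigb itself had a log2 fold change of 0.22 (adjusted p = 0.313). Sft2d2, whose product is a predicted vesicle transport protein, fell from 668, 742, 612 and 690 CPM to 501, 521, 458 and 520 CPM (log2 fold change -0.44, edgeR adjusted p = 1.16e-04).

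The 2 largest decreases after Tfeb were Trps1 and Nr4a1. Trps1, a GATA-type transcriptional repressor, was at 3.76, 2.99, 3.29 and 2.07 CPM with the control ASO and 1.02, 2.03, 1.27 and 1.53 CPM with the Tfeb ASO (log2 fold change -1.06, edgeR adjusted p = 0.0474). Nr4a1, an immediate early nuclear receptor, went from 3.11, 2.90, 2.33 and 3.51 CPM to 1.83, 1.75, 1.34 and 1.29 CPM (log2 fold change -0.94, edgeR adjusted p = 0.0393). Both genes separated the groups, but at a few CPM. Tlr7, the endosomal receptor for single-stranded RNA, had 858, 853, 1055 and 1082 CPM with the control ASO and 594, 691, 828 and 652 CPM with the Tfeb ASO (log2 fold change -0.48, edgeR adjusted p = 0.0340). The remaining decreases among the 12 largest were in Olfr539 (-0.68), an olfactory receptor gene, Gprasp2 (-0.50), which sorts G protein-coupled receptors, Tmed8 (-0.46) and Pou2f1 (-0.45), a POU-domain transcription factor, given as log2 fold changes. Olfr539 lost its call without Tfeb ASO replicate 4 (adjusted p = 0.0575), Pou2f1 without control ASO replicates 2 or 4 or Tfeb ASO replicates 1 or 2 (up to 0.101), and Tlr7 without any one of the 8 (up to 0.161). Trps1 lost it for every library but control ASO replicate 4 (up to 0.188), Nr4a1 for every one but control ASO replicate 3 (up to 0.170), Gprasp2 for every one but control ASO replicate 2 (up to 0.163), and Tmed8 for every one but Tfeb ASO replicate 3 (up to 0.101).

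Because the MiT/TFE factors bind E-boxes, the promoters of the genes that fell were searched for CACGTG, for the longer palindrome TCACGTGA that forms the core of the CLEAR element and contains CACGTG, and for CATGTG, on both strands, in RefSeq windows of GRCm38.p6 from 250 bases before to 50 bases after the start. A window was at hand for 18 of the 22 genes that fell, and 4 of these (22.2%) held CACGTG, none TCACGTGA and 5 (27.8%) CATGTG. Of the 46 of 58 genes that rose with a window, 2 (4.35%) held CACGTG, 1 (2.17%) TCACGTGA and 8 (17.4%) CATGTG. Of the 8243 tested genes with a window the shares were 12.2%, 2.39% and 10.3%, and of all 32851 windows 7.15%, 0.974% and 14.2%. The 250 bases before the start are shown for the 4 genes that fell and held CACGTG, and for Ctsa, a lysosomal protease gene that rose and is the called gene holding TCACGTGA, chosen after its values were seen. Capitals mark the motif. Zfp871 (chr17:32788288-32788537, minus strand) has it from 89 bases before the start, Tmed8 (chr12:87200230-87200479, minus strand) from 136, Arl5b (chr2:15055070-15055319, plus strand) from 101 and Slc12a9 (chr5:137333583-137333832, minus strand) from 106. Ctsa (chr2:164833523-164833772, plus strand) has it from 13 bases before the start, and a further copy begins 4 bases after the start, outside the stretch shown.
Zfp871: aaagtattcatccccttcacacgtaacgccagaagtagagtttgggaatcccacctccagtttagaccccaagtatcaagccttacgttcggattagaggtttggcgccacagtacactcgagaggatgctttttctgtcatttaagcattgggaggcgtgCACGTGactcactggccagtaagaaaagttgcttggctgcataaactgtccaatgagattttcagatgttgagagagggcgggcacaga
Tmed8: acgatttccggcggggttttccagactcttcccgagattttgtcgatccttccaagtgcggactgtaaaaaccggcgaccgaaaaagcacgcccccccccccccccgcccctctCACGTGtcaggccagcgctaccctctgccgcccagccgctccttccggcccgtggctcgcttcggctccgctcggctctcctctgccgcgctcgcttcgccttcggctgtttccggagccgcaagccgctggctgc
Arl5b: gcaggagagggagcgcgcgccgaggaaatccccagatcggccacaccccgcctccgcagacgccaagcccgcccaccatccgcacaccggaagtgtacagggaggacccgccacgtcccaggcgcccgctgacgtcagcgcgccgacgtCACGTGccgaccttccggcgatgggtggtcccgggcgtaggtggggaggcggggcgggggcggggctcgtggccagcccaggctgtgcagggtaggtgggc
Slc12a9: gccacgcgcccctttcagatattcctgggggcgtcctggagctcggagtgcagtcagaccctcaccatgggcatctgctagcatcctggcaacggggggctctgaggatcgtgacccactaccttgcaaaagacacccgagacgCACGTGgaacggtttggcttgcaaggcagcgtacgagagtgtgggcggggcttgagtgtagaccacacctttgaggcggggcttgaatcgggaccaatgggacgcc
Ctsa: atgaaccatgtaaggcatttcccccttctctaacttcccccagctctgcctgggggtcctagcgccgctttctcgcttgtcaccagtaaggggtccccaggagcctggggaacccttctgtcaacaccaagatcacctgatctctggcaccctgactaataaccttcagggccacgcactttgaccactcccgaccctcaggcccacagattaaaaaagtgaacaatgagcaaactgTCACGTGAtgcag
A match is a description of these letters and not a site of binding.

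The 4 genes that fell with CACGTG in these windows had modest changes. Zfp871, a zinc finger gene, went from 151, 186, 188 and 198 CPM to 129, 137, 138 and 150 CPM with no overlap (log2 fold change -0.38, edgeR adjusted p = 0.00702). Arl5b, an ARF-like GTPase of the Golgi, went from 32.8, 31.7, 32.0 and 36.2 CPM to 23.4, 23.8, 24.7 and 27.1 CPM (log2 fold change -0.42, edgeR adjusted p = 0.0298). Slc12a9, of the cation-chloride cotransporter family, went from 257, 281, 268 and 278 CPM to 211, 243, 200 and 221 CPM (log2 fold change -0.31, edgeR adjusted p = 0.0352). The groups of Arl5b and Slc12a9 did not overlap either, but the call of Arl5b ended with any one library left out (adjusted p up to 0.108) and that of Slc12a9 with any one except Tfeb ASO replicate 2 (up to 0.146). Means with the Mitf and Tfe3 ASO were 143 and 151 CPM for Zfp871, 27.1 and 25.2 for Arl5b and 222 and 232 for Slc12a9. None of these genes was called between the Tfeb ASO and either of those ASOs. Tmed8 was called lower than with the Mitf ASO (edgeR adjusted p = 0.0160) but not than with the Tfe3 ASO (0.0879). That call ended without Mitf ASO replicates 1 or 4 or Tfeb ASO replicates 2 or 4 (up to 0.0564).

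**Figure D2:**
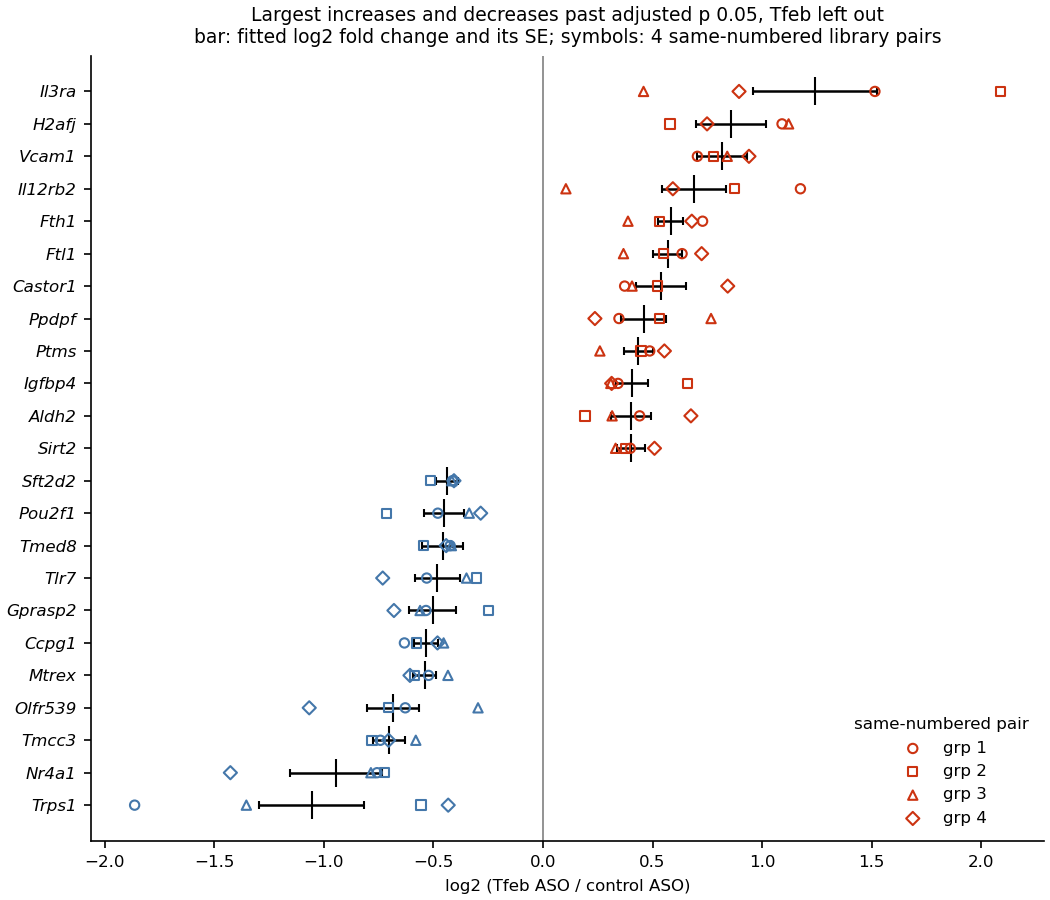
Log2 ratio of Tfeb ASO to control ASO (horizontal axis) for the 12 largest increases and the 11 largest decreases after Tfeb among genes past an adjusted p of 0.05; the black mark and bar are the fitted value and its SE and the open symbols the 4 same-numbered library pairs. All pairs of a gene lie on one side of 0, which the rule for choosing the genes required. The pairs of Il3ra, Trps1 and Il12rb2 are the most spread of the genes shown.

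The genes that rose included the 2 ferritin subunits, an adhesion molecule and, at low level, 2 cytokine receptor chains. Fth1, the heavy subunit of the iron store ferritin (GRCm38 chr19:9980598-9985098, plus strand), had 958, 1016, 1014 and 922 CPM with the control ASO. With the Tfeb ASO it had 1587, 1469, 1326 and 1476 CPM, all above the controls (log2 fold change 0.58, SE 0.0561, edgeR adjusted p = 2.51e-05). Ftl1, the light subunit, rose alongside from 964, 920, 1008 and 792 CPM to 1497, 1348, 1300 and 1308 CPM (log2 fold change 0.57, SE 0.0663, edgeR adjusted p = 1.28e-04). Searched by gene symbol, the annotation names 1 pseudogene of Ftl1 and 0 of Fth1, and pseudogenes under other names were not counted. 34.6% of the exonic bases of Ftl1 overlap other annotated genes, so the counts of Ftl1 are uncertain. Vcam1, an adhesion molecule of the immunoglobulin family that binds integrins, had 12.4, 11.1, 14.2 and 10.1 CPM with the control ASO and 20.3, 19.1, 25.5 and 19.5 CPM with the Tfeb ASO. It thus stood 1.76-fold higher with no overlap (log2 fold change 0.82, SE 0.114, edgeR adjusted p = 9.12e-04). Vcam1 had 19.7 to 26.7 CPM with the Mitf ASO and 16.2 to 19.4 CPM with the Tfe3 ASO. The Tfeb ASO libraries were not called against either (edgeR adjusted p = 0.476 and 0.316).

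At a few CPM lay Il3ra, the alpha chain of the interleukin-3 receptor, with 1.04, 0.855, 2.15 and 1.35 CPM against 3.01, 3.72, 2.97 and 2.52 CPM (log2 fold change 1.24, edgeR adjusted p = 0.0464). H2afj, a histone variant, went from 4.47, 7.22, 4.66 and 4.53 CPM to 9.55, 10.8, 10.2 and 7.63 CPM (log2 fold change 0.86, edgeR adjusted p = 0.0142). Il12rb2, a chain of the interleukin-12 receptor, had 4.20, 3.61, 5.98 and 3.61 CPM against 9.51, 6.64, 6.43 and 5.46 CPM with overlap (log2 fold change 0.69, edgeR adjusted p = 0.0340). 40.0% of the exonic bases of Il12rb2 overlap Serbp1 on the other strand, and Serbp1 had a log2 fold change of 0.05 (adjusted p = 0.693). The other increases among the 12 largest, as log2 fold changes, were in Castor1 (0.54), an arginine sensor upstream of mTOR, Ppdpf (0.46), Ptms (0.44), which encodes parathymosin, Igfbp4 (0.41), which binds insulin-like growth factors, Aldh2 (0.40), a mitochondrial aldehyde dehydrogenase, and Sirt2 (0.40), a protein deacetylase. Ly6e, a lipid-anchored surface protein, rose at a higher level, from 1166, 1189, 1129 and 1165 CPM to 1483, 1533, 1539 and 1575 CPM (log2 fold change 0.40, edgeR adjusted p = 3.58e-04), and is named here after its values were seen. With the Mitf and Tfe3 ASO, Ly6e had means of 1560 and 1421 CPM and H2afj of 9.38 and 8.66 CPM. Neither gene was called between the Tfeb ASO and those ASOs.

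Fth1, Ftl1, Vcam1, Ptms, Sirt2 and Ly6e kept their calls with any one library left out. Igfbp4 lost its call without control ASO replicate 2 or Tfeb ASO replicates 1 or 2 (adjusted p up to 0.0959), H2afj without control ASO replicates 1 or 3 or Tfeb ASO replicates 1, 2 or 4 (up to 0.100), and Il3ra and Il12rb2 without control or Tfeb ASO replicates 1, 2 or 4 (up to 0.188 and 0.170). Castor1 lost it for every library except Tfeb ASO replicate 3 (up to 0.137), Aldh2 for every one except control ASO replicate 2 (up to 0.167), and Ppdpf for each of the 8 (up to 0.188). Sirt2 is also abundant in oligodendrocytes. The 6 measured oligodendrocyte markers all had higher values with the Tfeb ASO, with log2 fold changes from 0.0642 to 1.21 and a median of 0.155. They summed to 1446 to 1701 CPM in the control libraries and 1535 to 2015 CPM in the Tfeb ASO libraries. The myelin gene Mobp, named outside the rule given below, had the largest of these changes (log2 fold change 1.21, edgeR adjusted p = 0.0683). It lay at a few CPM, with 1.53, 0.665, 1.61 and 1.77 CPM against 3.09, 2.25, 4.17 and 3.58 CPM. 10 further oligodendrocyte markers were not analysed here, the sort for CD11b+, CX3CR1+ cells selects against these cells, and their part in the rise of Sirt2 was not tested.

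None of the measured lysosomal genes fell past the test, and of all 10277 genes 22 (0.214%) did. At so low a share, the absence of a fall says little about these genes. Of 108 measured genes of the lysosomal lists (hydrolases, cathepsins with cystatins, membrane proteins and the proton pump), 10 rose in edgeR, beside 0.564% of all genes. An unadjusted edgeR p under 0.05 was seen in 34 of the 108 and in 1478 of all 10277 genes. DESeq2 called 16 higher and limma on the batch-corrected signal 14, and neither called any lower. The 10 were 4 of the cathepsin list, 5 of the hydrolase list and Npc2 of the membrane list, with log2 fold changes of 0.23 to 0.37. The number was 6 without control ASO replicate 1 or Tfeb ASO replicate 1, 7 to 11 without any other single library, and 1 (Gm2a) without grp as a block.

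Cathepsins and cystatins had the highest median of the lysosomal lists, with a log2 fold change of 0.195 against 0.00536 for all genes. Of 14 measured among 16 listed, 4 rose, none fell and 13 had higher values, and their summed level was 47180 to 53160 CPM with the control ASO and 55860 to 63330 CPM with the Tfeb ASO. Ctsb, a cysteine protease, had 3482, 3172, 3770 and 3151 CPM with the control ASO and 4526, 3690, 4182 and 4115 CPM with the Tfeb ASO. Every pair rose although the ranges overlapped (log2 fold change 0.28, SE 0.0443, edgeR adjusted p = 0.00302). Ctsa, the protease that also protects beta-galactosidase and neuraminidase, went from 1249, 1154, 1464 and 1221 CPM to 1492, 1460, 1612 and 1575 CPM (log2 fold change 0.27, edgeR adjusted p = 0.00280). Ctss, an elastolytic protease of macrophages, went from 6312, 6355, 6144 and 5518 CPM to 7715, 7129, 6939 and 6971 CPM without overlap (log2 fold change 0.24, edgeR adjusted p = 0.00366). Cst3, the secreted inhibitor cystatin C, went from 16256, 16818, 15032 and 13457 CPM to 19874, 19367, 18182 and 16242 CPM (log2 fold change 0.26, edgeR adjusted p = 0.0238). Just short of the threshold were Ctsd at 0.18 (adjusted p = 0.0540), Ctsl at 0.21 (0.0762) and Ctsz at 0.27 (0.0763). Other annotated exons on the opposite strand overlap 12.8% of the exonic bases of Ctsb and 17.4% of those of Ctsa. The call of Ctss ended without control ASO replicate 1 or Tfeb ASO replicate 1 (adjusted p up to 0.0563), and that of Cst3 without control ASO replicates 1, 3 or 4 or Tfeb ASO replicates 1, 2 or 4 (up to 0.179).

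Of 39 measured lysosomal hydrolases and their cofactors, 5 rose and none fell, and 30 had higher values (median 0.0646). Gm2a, an activator protein of ganglioside breakdown, had 337, 345, 376 and 353 CPM with the control ASO and 418, 415, 436 and 463 CPM with the Tfeb ASO, with no overlap (log2 fold change 0.30, SE 0.0394, edgeR adjusted p = 6.21e-04). Man2b1, lysosomal alpha-mannosidase, went from 1547, 1630, 1918 and 1682 CPM to 1881, 2007, 2212 and 2094 CPM (log2 fold change 0.28, edgeR adjusted p = 0.00143). Psap, the precursor of the saposins that assist sphingolipid breakdown, went from 4357, 4637, 5094 and 4836 CPM to 4986, 5258, 6043 and 5939 CPM (log2 fold change 0.23, edgeR adjusted p = 0.00230). Both rose in every pair, with overlapping ranges. Grn, which encodes progranulin, went from 2811, 2921, 3207 and 2988 CPM to 3448, 3496, 3588 and 3436 CPM and did not overlap (log2 fold change 0.23, edgeR adjusted p = 0.00765). Arsb, a sulfatase of glycosaminoglycan breakdown, was at 0.29 (adjusted p = 0.0474), and 39.9% of its exonic bases overlap genes on the other strand. Hydrolases that did not pass included Lipa, the acid lipase, at -0.10 (adjusted p = 0.532) and Sgsh, the sulfamidase, at 0.13 (0.487). The call of Grn ended without control ASO replicate 1 or Tfeb ASO replicates 1 or 2 (adjusted p up to 0.0913), and that of Arsb without any one library except Tfeb ASO replicate 3 (up to 0.227).

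On the list of lysosomal membrane proteins, 1 of 38 measured members rose and none fell, and the median was -0.00524 (0.0042 on the batch-corrected signal). The 1 was Npc2, which is a soluble cholesterol carrier of the lumen and hands sterol to the membrane protein NPC1. Npc2 had 557, 558, 557 and 477 CPM with the control ASO and 780, 671, 678 and 655 CPM with the Tfeb ASO, all above the controls (log2 fold change 0.37, SE 0.0487, edgeR adjusted p = 5.08e-04). Npc1 itself was at -0.06 (adjusted p = 0.656), and Lamp1, a major glycoprotein of the membrane, was at 0.15 (0.121). Laptm5, a transmembrane protein of blood cells, was at 6691, 6587, 7097 and 7812 CPM against 7321, 7526, 7679 and 8309 CPM (log2 fold change 0.13, adjusted p = 0.0511), and Mcoln1, the lysosomal calcium channel, was at 0.05 (0.791). None of 17 measured subunits of the vacuolar proton pump passed in edgeR (2 had an unadjusted p under 0.05), in DESeq2 or in limma on the batch-corrected signal. Their log2 fold changes ran from -0.0748 to 0.164, and of all genes 0.778% passed in edgeR. 3 lysosomal genes outside the lists rose as well and are named after their values were seen. Pld3, an exonuclease that digests single-stranded nucleic acid, was at 0.35 (edgeR adjusted p = 0.00143). Plbd2, a phospholipase B-like protein, was at 0.24 (0.0212) and Man2b2, a mannosidase, at 0.30 (0.0270). Pld3 kept its call with any one library left out, whereas Plbd2 lost it without control or Tfeb ASO replicates 1, 2 or 4 (up to 0.153) and Man2b2 without control ASO replicates 1, 2 or 4 or Tfeb ASO replicates 2, 3 or 4 (up to 0.139).

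Among 25 measured genes of the list of the MiT/TFE family and nutrient sensing, Tfeb itself was the single one called, in edgeR, DESeq2 and limma on the batch-corrected signal, and the median was 0.00704. The folliculin complex, which controls TFEB through the Rag GTPases, had Flcn at 0.02 (adjusted p = 0.949) and Fnip1 at -0.09 (0.713), and the kinase gene Mtor was at 0.21 (0.303). Of 44 measured autophagy genes, Tfeb was again the single one called in edgeR, with a median of -0.0168, and DESeq2 and limma on the batch-corrected signal each called 1 further gene, higher. Gabarap, a ubiquitin-like protein of the autophagosome, had 251, 239, 215 and 211 CPM against 299, 260, 238 and 243 CPM (log2 fold change 0.18, adjusted p = 0.118). Of the measured lysosomal genes, 86 had a promoter window, and 22 (25.6%) held CACGTG and 12 (14.0%) TCACGTGA. The 12 with TCACGTGA had log2 fold changes from -0.0848 to 0.275 with a median of 0.0249, 7 higher and 5 lower, and 1 of them, Ctsa, was called. The 74 without it had a median of 0.0602, and 8 of them rose. No test of the difference was made.

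**Figure D3:**
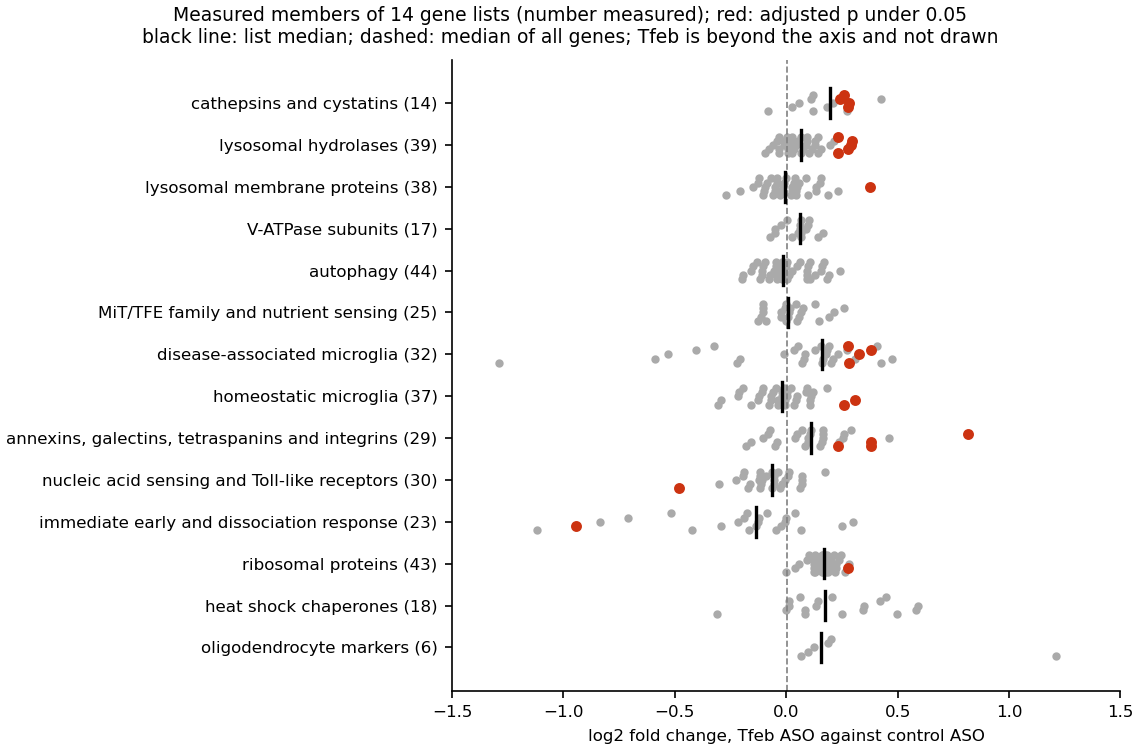
Log2 fold change, Tfeb ASO against control ASO (horizontal axis), of the measured members of 14 gene lists (rows); red points passed an adjusted p of 0.05, grey points did not, black lines are list medians and the dashed line is the median of all genes. Cathepsins, ribosomal proteins and heat shock chaperones have medians of 0.195, 0.168 and 0.175, the proton pump and membrane proteins 0.0636 and -0.00524, and Tfeb lies beyond the axis and is not drawn.

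The genes of microglial state that passed edgeR's test all rose, and of all 10277 genes 58 (0.564%) were called higher. Of 32 measured genes of the disease-associated state, which microglia enter around plaques and dying cells, 4 rose (Ctsb, B2m, Tyrobp and Anxa5) and none fell in edgeR. DESeq2 called 9 higher and 1 lower, limma on the batch-corrected signal 8 higher and 1 lower, and edgeR with upper-quartile factors 2 higher and none lower. The list median was 0.162, and it differed between the pairs, at 0.386, 0.142, -0.147 and 0.327 for grp 1 to 4, so that pair 3 went the other way. B2m, the light chain of MHC class I, went from 1788, 1698, 1821 and 1893 CPM to 2363, 1997, 2099 and 2279 CPM (log2 fold change 0.28, edgeR adjusted p = 0.00467). Tyrobp, the adaptor through which TREM2 signals, went from 586, 591, 572 and 454 CPM to 790, 694, 659 and 610 CPM (log2 fold change 0.33, edgeR adjusted p = 0.0227). Neither gene overlapped between the groups. Among members that did not pass, Trem2 was at 0.19 (adjusted p = 0.124), Apoe at 0.18 (0.850) and Spp1 at -1.29 (0.594). The call of B2m ended without control ASO replicate 1 (0.0668), and those of Tyrobp and Anxa5 without 6 of the 8 libraries each. For Tyrobp these were control ASO replicates 1, 3 and 4 and for Anxa5 control ASO replicates 1, 2 and 4, with Tfeb ASO replicates 1, 2 and 4 for both (up to 0.111 and 0.170).

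Of 37 homeostatic genes, all measured, 2 rose, Ltc4s, a leukotriene synthase, and Cst3, none fell in edgeR, and the median was -0.0194. DESeq2 called 2 higher and 2 lower, limma on the batch-corrected signal 1 higher and 1 lower, and edgeR with upper-quartile factors none. P2ry12, the ADP receptor of resting microglia, was at -0.20 (adjusted p = 0.216) and Tmem119 at -0.01 (0.963). Of 20 measured genes of Trem2 and Syk signalling, 2 rose, Tyrobp and Fcer1g, and of 22 measured phagocytic, Fc and scavenger receptors 1 rose, Fcer1g, the signalling chain shared by Fc receptors (0.22, edgeR adjusted p = 0.0350). With upper-quartile factors no gene of these 2 lists passed. Annexins, galectins, tetraspanins and integrins had 4 of 29 higher, Vcam1, Anxa6, Cd37 and Anxa5, with a median of 0.109. Anxa6, which binds membranes with calcium, went from 43.0, 41.8, 42.5 and 35.4 CPM to 52.4, 48.4, 56.8 and 53.8 CPM (log2 fold change 0.38, edgeR adjusted p = 0.00373). Anxa6 kept its call with any one library left out, Fcer1g and Cd37 lost theirs without any one except Tfeb ASO replicate 3 (adjusted p up to 0.199 and 0.188), and Ltc4s without control ASO replicates 1, 2 or 3 or Tfeb ASO replicates 1 or 2 (up to 0.149).

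Immune sensing and early response genes had 1 call in each list, both decreases, and of all 10277 genes 22 (0.214%) were called lower. Of 30 measured Toll-like receptors and nucleic acid sensors, Tlr7 fell and 23 had lower values (median -0.0643). Unc93b1, the chaperone that brings TLR7 to endosomes, was at -0.03 (adjusted p = 0.826) and Tlr13 at -0.00 (0.986). Of 23 measured immediate early and dissociation genes, Nr4a1 fell and 19 had lower values (median -0.137). Fos, which cell dissociation induces, was at -0.84 (adjusted p = 0.159) and Egr1 at -0.71 (0.114). The list summed to 4471 to 5308 CPM with the control ASO and 4119 to 4705 CPM with the Tfeb ASO, and its part in the fall of Nr4a1 was not tested. Among lipid efflux and storage genes Abcg1, a cholesterol exporter, was the 1 of 18 that fell, from 525, 480, 391 and 421 CPM to 449, 390, 310 and 388 CPM (log2 fold change -0.24, edgeR adjusted p = 0.0340), a call that ended with any one library left out (up to 0.139).

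The edgeR calls among metabolic and translation genes were all increases, and of all genes 0.564% were called higher. Of 24 measured Nrf2 antioxidant targets the 2 ferritin genes rose (median 0.0481), and of 22 measured glycolysis and hypoxia genes Pkm and Gapdh rose (median 0.0695). Pkm, pyruvate kinase, went from 280, 258, 298 and 243 CPM to 381, 341, 347 and 325 CPM (log2 fold change 0.37, edgeR adjusted p = 6.99e-04), and Gapdh was at 0.25 (0.0330). All 43 ribosomal protein genes had higher values, with a median of 0.168, but only Rps2 passed (0.28, edgeR adjusted p = 0.0447), and the pairs differed, with medians of 0.248, 0.0992, 0.00943 and 0.296. Searched by gene symbol, the annotation names 11 pseudogenes of Rps2 and 2 of Gapdh, which makes the read counts of both genes uncertain. Pseudogenes under other names were not counted. None of 39 respiratory chain genes passed in edgeR (3 had an unadjusted p under 0.05), in DESeq2 or in limma on the batch-corrected signal, and 35 had higher values (median 0.0821). None of 18 measured heat shock chaperones passed in edgeR or in limma on the batch-corrected signal and 1, lower, in DESeq2, with 7 at an unadjusted edgeR p under 0.05 and a median of 0.175 that reached 0.51 in pair 3. The call of Gapdh ended without control or Tfeb ASO replicates 1, 2 or 4 (adjusted p up to 0.188), and that of Rps2 without any one library except Tfeb ASO replicate 3 (up to 0.227). Pkm kept its call with any one library left out but not without grp as a block (edgeR adjusted p = 0.115).

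Complement and antigen presentation had 1 edgeR call each and the remaining lists 1 or none, where 0.778% of all genes were called. C1qb, a chain of the complement initiator C1q, was the 1 of 13 complement genes that rose, from 3906, 3986, 3884 and 3442 CPM to 4670, 4490, 4712 and 4345 CPM (log2 fold change 0.26, edgeR adjusted p = 0.0352), while C1qa was at 0.14 (0.316) and C1qc at 0.14 (0.226). B2m was the 1 of 18 antigen presentation genes that rose, and H2-D1, an MHC class I heavy chain, was at 0.33 (0.0540). Of 26 growth factor and TGF-beta genes Igfbp4 rose, while Csf1r, the receptor that keeps microglia alive, was at 0.11 (0.245). In edgeR no gene passed among 26 of cholesterol synthesis (2 at an unadjusted p under 0.05), 27 of the interferon response (2), 25 cytokines and chemokines (4), 17 of the cell cycle (6), 21 of the Atf4 stress and amino acid response (3) or 15 of the circadian clock (3). Their medians were -0.00847, 0.0443, 0.0528, 0.167, -0.0513 and -0.0474. The last was 0.121 on the batch-corrected signal. DESeq2 and limma on that signal each called 1 cytokine or chemokine gene lower, 1 cell cycle gene higher and 1 clock gene higher, and none in the other 3 lists. The call of C1qb ended without any one library except control ASO replicate 2 (adjusted p up to 0.177).

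Set directly against the Mitf ASO, the Tfeb ASO libraries differed in 363 genes (3.53%), 191 higher and 172 lower, and against the Tfe3 ASO in 167 (1.62%), 110 higher and 57 lower. Against PBS, 352 genes (3.43%) differed, 270 higher and 82 lower. These comparisons share the Tfeb ASO libraries with each other and with the comparison against the control ASO, so the values are given side by side. Of the 58 genes called higher against the control ASO, the Mitf ASO comparison called 1 higher and 16 lower, and 41 did not pass. The Tfe3 ASO comparison called 8 of the 58 higher and none lower, and that with PBS 52 higher and none lower. Of the 22 called lower, 9, 8 and 21 were also called lower than with the Mitf ASO, the Tfe3 ASO and PBS. None of the 22 was called higher there. Mtrex, Tmcc3 and Ccpg1 were lower than in either ASO group, with log2 fold changes against the Mitf ASO of -0.50, -0.58 and -0.65 (edgeR adjusted p = 3.65e-05, 2.09e-04 and 1.73e-06). Against the Tfe3 ASO they were -0.61, -0.58 and -0.61 (edgeR adjusted p = 3.94e-06, 5.81e-04 and 5.86e-06). Nr4a1 was lower than with the Mitf ASO at a log2 fold change of -0.90 (edgeR adjusted p = 0.0228) and than with the Tfe3 ASO at -1.07 (0.0125). The call of Nr4a1 ended without 6 of the 8 libraries against the Mitf ASO, all but Mitf ASO replicate 4 and Tfeb ASO replicate 1 (adjusted p up to 0.0915), and without Tfeb ASO replicates 2, 3 or 4 or Tfe3 ASO replicate 3 against the Tfe3 ASO (up to 0.0623). Without grp as a block Mtrex kept both calls (4.235e-04 and 2.964e-05), Ccpg1 the one against the Mitf ASO (0.0416 and 0.101) and Tmcc3 neither (0.153 and 0.215). Igfbp4 was the one gene that rose against the control ASO and was also called higher than with the Mitf ASO, in which it lay at 24.2 to 30.6 CPM against 51.1 to 60.7 CPM with the Tfeb ASO and 38.5 to 42.9 CPM with the control ASO (log2 fold change 0.95, SE 0.0745, edgeR adjusted p = 7.24e-07).

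Several lysosomal and ferritin genes that rose with the Tfeb ASO lay higher still with the Mitf ASO. Ctsb had 5642 to 6557 CPM with the Mitf ASO, above all 4 Tfeb ASO libraries (log2 fold change of Tfeb ASO against Mitf ASO -0.53, SE 0.0444, edgeR adjusted p = 1.28e-06). Npc2 had 796 to 965 CPM there (-0.35, adjusted p = 6.08e-04), Ctsa 1802 to 2085 CPM (-0.34, 1.79e-04) and Ftl1 1572 to 2002 CPM (-0.41, 0.00203). Anxa5, which binds phosphatidylserine, had 45.7 to 58.9 CPM with the Mitf ASO and 28.5 to 34.0 CPM with the Tfeb ASO (-0.73, edgeR adjusted p = 7.73e-05). Of the lists, 0 of 39 hydrolases were higher and 11 lower than with the Mitf ASO (median -0.146), 0 of 14 cathepsins and cystatins higher and 7 lower (median -0.218), and 0 of 32 disease-associated genes higher and 14 lower (median -0.346). Of all 10277 genes, 191 were called higher and 172 lower in this comparison, and the median of all genes was 0.0129. Without grp as a block the lower ones of these lists numbered 4, 3 and 4, and the disease-associated ones 9 without Tfeb ASO replicate 2 or 3.

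Against the Tfe3 ASO, 13 of the 108 measured lysosomal genes were higher and 1 lower in edgeR. Of all 10277 genes, 110 were higher and 57 lower. 8 of 39 hydrolases were higher and none lower (median 0.0615), and 4 of 38 membrane proteins were higher and none lower (median 0.0388). Of 14 cathepsins and cystatins 1 was higher and 1 lower (median 0.0674). Of 17 proton pump subunits none passed in edgeR, 2 were higher in DESeq2 and 1 in limma on the batch-corrected signal. An unadjusted edgeR p under 0.05 was seen in 6 of the 17 and in 1935 of all 10277 genes. In edgeR 8 of 32 disease-associated genes were lower and none higher (median -0.152), beside 0.0108 for all genes. The edgeR counts of these lists fell to 0 without grp as a block. They were 2 to 6 hydrolases, 0 to 3 membrane proteins and 3 to 11 disease-associated genes with 1 library left out, with 2 hydrolases without Tfe3 ASO replicate 3, no membrane protein without Tfeb ASO replicates 2 or 4 or Tfe3 ASO replicates 1 or 4, and 3 disease-associated genes without Tfeb ASO replicate 3. Ctsa lay at 1250 to 1341 CPM with the Tfe3 ASO, below all 4 Tfeb ASO libraries at 1460 to 1612 CPM (log2 fold change of Tfeb ASO against Tfe3 ASO 0.25, edgeR adjusted p = 0.00585, and 0.0542 without Tfeb ASO replicate 2). Grina, a transmembrane protein linked to apoptosis control, had 199 to 216 CPM with the Tfe3 ASO and 251 to 280 CPM with the Tfeb ASO (0.36, edgeR adjusted p = 9.52e-04). Further called increases that also stood above the Tfe3 ASO were Il12rb2 (0.60, adjusted p = 0.0465), St14, a membrane serine protease (0.34, 0.0350), and Sirt2 (0.29, 0.0280). Each of these 3 lost that call without 7 of the 8 libraries (adjusted p up to 0.186, 0.157 and 0.142), the exception being Tfeb ASO replicate 3 for Il12rb2 and Tfeb ASO replicate 1 for St14 and Sirt2, and Grina kept it. Ctsb, Fth1 and Gm2a did not pass this test, at -0.12 (adjusted p = 0.170), 0.01 (0.922) and -0.04 (0.606).

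Against PBS, Npc2 was higher at a log2 fold change of 0.52 (edgeR adjusted p = 9.73e-06), Ctsb at 0.40 (3.58e-05) and Gm2a at 0.35 (4.58e-05). Ribosomal protein genes were called higher for 25 of 43 against PBS (median 0.341) and for 1 of 43 against the control ASO. Of all 10277 genes, 270 were called higher against PBS (median of all genes -0.00518) and 58 (0.564%) against the control ASO. The 25 ribosomal calls were 1 without Tfeb ASO replicate 1, 3 and 5 without Tfeb ASO replicates 2 and 4, 4, 15 and 41 without PBS replicates 2, 3 and 4, and 1 without grp as a block. Igfbp4 did not pass against PBS (0.24, 0.0816), where it lay at 42.6 to 48.7 CPM.

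The counts of these 3 comparisons also leaned on single libraries. Against the Mitf ASO the count was 129 without Mitf ASO replicate 1, 158 without Mitf ASO replicate 2, and 118, 143 and 217 without Tfeb ASO replicates 2, 3 and 4. Against the Tfe3 ASO it was 568, 48, 59 and 77 without Tfeb ASO replicates 1 to 4 and 78, 66, 59 and 69 without Tfe3 ASO replicates 1 to 4. Against PBS it was 910, 150 and 228 without PBS replicates 1, 2 and 3 and 141, 180 and 178 without Tfeb ASO replicates 1, 2 and 4. With upper-quartile factors 146 genes were higher and 218 lower than with the Mitf ASO (40.11% higher against 52.62%), and 76 higher and 68 lower than with the Tfe3 ASO (52.78% against 65.87%).

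**Figure D4:**
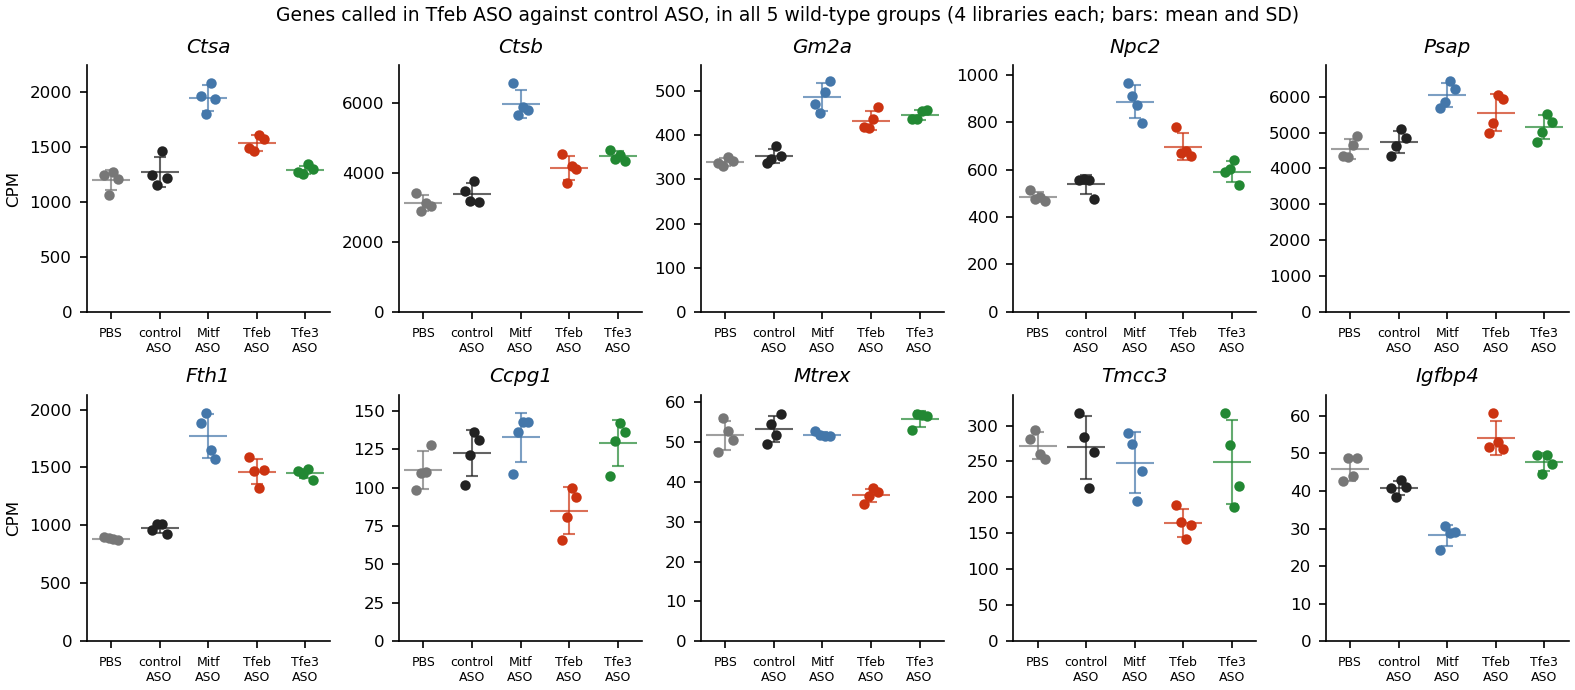
CPM (vertical axes, each from 0) of 10 genes called between Tfeb ASO and control ASO in all 5 wild-type groups; points are libraries, 4 a group, and bars mark mean and SD. Ctsb, Npc2 and Ctsa are highest with the Mitf ASO, Mtrex and Ccpg1 have their lowest mean with the Tfeb ASO, and Igfbp4 is lowest with the Mitf ASO at 24.2 to 30.6 CPM.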

How the data were processed

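RNA was measured by polyA-selected, dUTP-stranded RNA-seq, per the labels' protocols. The authors deposited raw counts per gene, which were used as they stand, and a normalized signal that the name of its table calls batch-corrected, used as an alternative. The submitters' processing notes name STAR 2.5.3a, kallisto 0.44.0, HOMER 4.11, DESeq2 1.36.0, R 4.2.3 and mm10, without a role for each. The counting tool, the annotation and the use of strand are not given in the sources used here.

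All 20 injected wild-type libraries were fitted together in edgeR 4.0.16 (R 4.3.3) with treatment group and grp as a block and the quasi-likelihood test. Libraries were scaled by TMM, and filterByExpr was set to a minimum count of 10. P-values were adjusted by Benjamini-Hochberg over all 10277 genes, and an adjusted p of 0.05 was the threshold. The deposited table holds genes with a mean count of 7.05 or more, and all of them passed the filter. 10 symbols occur more than once, and those rows entered no list. The SE is the absolute log2 fold change divided by the square root of F, so it restates the test. DESeq2 1.42.0 and limma 3.58.1 gave alternatives, the latter on log2(signal + 1) of the authors' deposited values without the block. The limma fit took no account of the correction already made to that signal, so its p-values may be too small. The tests were checked first on simulated counts, from which group and block effects had been removed before known changes were put in. That check therefore does not cover the dependence on grp, and it was required to pass only for the largest changes put in.

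The pairing comes from the grp number in the labels, which do not say what it stands for. Deviations from the group means correlated within a number at 0.592, 0.223, 0.444 and 0.455 between the Tfeb and control ASO libraries. The title of PBS replicate 4 says grp 4, whereas its column name says grp 3. Grp 4 was used, where the mean correlation of this library with the others was 0.399 against 0.177 in grp 3. Log expression correlated at 0.961 to 0.980 within the 2 groups. TMM factors were 1.002 to 1.015 with the control ASO and 0.985 to 1.002 with the Tfeb ASO, and the 10 most abundant genes took 11.04 to 11.48% and 11.38 to 11.87% of counts. No library was a copy of another within sampling noise.

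Members and gene lists were chosen with earlier results of these data known. The genes named were the 3 factors, the 12 largest called increases and decreases that went one way in all 4 pairs, up to 4 called members of each list by adjusted p (or up to 3 with the highest CPM where fewer than 2 passed), and, in the direct tests against the Mitf and Tfe3 ASO, the 5 largest called differences in each direction among genes also called against the control ASO. Exceptions are marked in the text, and 1 gene the rule names is not reported here. Coordinates are GENCODE M21 on GRCm38, and promoter windows are RefSeq on GRCm38.p6. Other injected or age-course samples were left out as outside the comparison.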

Additional observations from a re-analysis of the deposited data

Results flagged for a closer look

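In 94 groups of 4 libraries examined for the named genes, 4 held 1 library far from the other 3, and chance alone gives about 1 in 20 such groups. For Npc2, control ASO replicate 4 had 476.65 CPM and the other control libraries 556.76 to 558.45 CPM. For Tyrobp the same library had 453.63 CPM against 571.88 to 590.62 CPM, and for Anxa6 35.402 CPM against 41.81 to 42.982 CPM. For H2afj, control ASO replicate 2 had 7.2217 CPM and the others 4.4728 to 4.6635 CPM. Without the library named, Npc2 and Anxa6 remained called against the Tfeb ASO, as did H2afj, and Tyrobp did not.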

How the results depend on the processing

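Tfeb fell under every alternative run, at log2 fold changes of -3.31 to -3.05. The numbers of called genes were less steady. Against the control ASO (80 genes), upper-quartile factors gave 47, DESeq2 213, the fit without grp as a replicate block 9, the 2 groups alone 437, the batch-corrected signal 145, and leaving out 1 library 24 to 63. Against PBS (352), the fit without the replicate block gave 58, the 2 groups alone 14, PBS replicate 4 in grp 3 598, and leaving out 1 library 141 to 910. Against the Mitf ASO (363), DESeq2 gave 573, no replicate block 33 and leaving out 1 library 118 to 458. Against the Tfe3 ASO (167), DESeq2 gave 429, no replicate block 7, the 2 groups alone 343, the batch-corrected signal 284 and leaving out 1 library 48 to 568. The cause of these moves was not tested, apart from there being fewer libraries where 1 was left out. RLE factors, no filter on low counts and a minimum count of 50 kept all 4 counts within 1.5 times. Of 47 named genes called against the control ASO, 8 were called under all alternatives, and no named gene changed sign while called. Over all named genes, 1874 of 2142 fits kept their side of the threshold. No list median moved by more than its spread over the 4 pairs in the 105 refits, though medians near 0 changed sign for lysosomal membrane proteins, the MiT/TFE family and clock genes on the batch-corrected signal, and for the MiT/TFE family and phagocytic receptors with upper-quartile factors. With 4 libraries a group and log2 fold changes mostly under 0.5, the depth and spread of these libraries limit what a missed threshold can show.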
